A study of Mus musculus with 8 samples.

Results

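Chromosome ends shorten with each round of replication because the polymerases cannot copy them to the last base. Telomerase adds repeats to the single-stranded overhang at the end: TERT is its reverse transcriptase, the RNA Terc carries the template, and a box H/ACA protein set (dyskerin, NHP2, NOP10, GAR1) holds that RNA in a stable particle. The CST complex (CTC1, STN1, TEN1) then limits telomerase and brings DNA polymerase alpha to fill in the opposite strand. RAP1, encoded by Terf2ip, belongs to shelterin, the complex that coats telomeric repeats. In differentiated tissues such as fat, Tert transcripts are usually low, whereas most of the accessory proteins also serve ribosomal RNA, splicing or DNA repair and are widely expressed.

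The values described here are those of 10 genes of telomerase, CST and telomere processing, measured in gonadal white fat. They were selected by gene name from pathway membership: Tert, Dkc1, Nhp2, Nop10, Wrap53, Ctc1, Ten1, Rtel1, Dclre1b and Tep1. RefSeq accessions, which named 46.8% of the probes, tied 1 probe to each gene, so that 10 of 55668 probes, and 10 of 19749 named genes, were members. The study hybridised total RNA of 4 Rap1-/- mice and 4 WT mice, with 1 array per mouse, to ask whether loss of RAP1 alters transcription before obesity starts. The Rap1-/- mice lacked RAP1 in the whole body. They descended from a cross of Rap1 flox/flox mice with a line expressing cre from the adenovirus EIIa promoter, and the cre allele was bred out of the colony. The WT mice had the intact gene. Both groups were females of 10 weeks on a C57BL6/129SV (90%:10%) background, and RNA integrity numbers lay between 6.5 and 8.5. In these bulk RNA samples, fewer cells of a type and less RNA per cell cannot be told apart.

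All values are log2 intensities relative to the 75th percentile of the same array, so a probe at 0 was as bright as that percentile and each unit is a doubling. Levels of different genes were not ranked, since probes differ in brightness for the same amount of RNA. The 75th percentile itself lay between 302 and 497 intensity units, and 59.7% to 65.2% of gene spots were well above background. The arrays came on 2 slides: replicates 3 and 4 of both genotypes shared slide 2, and replicates 1 and 2 shared slide 1. On both slides the Rap1-/- arrays took positions 3 and 4 and the WT arrays positions 1 and 2, so position and genotype cannot be told apart. The targeted gene was checked first. A Terf2ip probe matched the labels: it was well above background on none of the Rap1-/- arrays and lay between 0.057 and 0.49 on the WT arrays, which puts WT at least 43.1-fold higher (the dim arrays were set to their lowest signal well above background). The other Terf2ip probe was 5.22-fold higher in Rap1-/- fat. The 8 adipocyte markers were well above background on all 8 arrays. Of the 8 genes of ovary and reproductive tract, 5 (Amh, Fshr, Cyp19a1, Pax8 and Ddx4) were not well above background on any array. The other 3 (Foxl2, Inha and Ovgp1) were well above background on all 8 arrays, with Foxl2 averaging 4.68 in Rap1-/- and 4.83 in WT fat. Skeletal muscle markers summed to between 22.5 and 797 in Rap1-/- fat and between 56.5 and 347 in WT fat, relative to the 75th percentile on the linear scale.

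The sequences before the transcription starts of Tert and Nhp2 are shown because these genes had the largest genotype differences in size among the members. This ranking, with differences of -0.163 and -0.162, holds for the scaling described above. Neither gene differed beyond the spread between mice (limma adjusted p = 0.951 and 0.911). With arrays scaled to their E1A spike-in controls instead, these genes had the smallest differences among the members, 0.050 and 0.051. The sequences are the 250 bases upstream in RefSeq GRCm38.p6, chr13:73626661-73626910 (+) for Tert and chr11:51619523-51619772 (+) for Nhp2. Capitals mark the GC box GGGCGG and the CCAAT box CCAAT on either strand.
Tert: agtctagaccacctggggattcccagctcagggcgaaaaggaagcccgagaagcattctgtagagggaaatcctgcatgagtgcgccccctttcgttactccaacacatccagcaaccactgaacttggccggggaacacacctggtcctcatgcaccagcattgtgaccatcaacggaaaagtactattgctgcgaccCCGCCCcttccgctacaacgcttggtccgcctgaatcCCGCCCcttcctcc
Nhp2: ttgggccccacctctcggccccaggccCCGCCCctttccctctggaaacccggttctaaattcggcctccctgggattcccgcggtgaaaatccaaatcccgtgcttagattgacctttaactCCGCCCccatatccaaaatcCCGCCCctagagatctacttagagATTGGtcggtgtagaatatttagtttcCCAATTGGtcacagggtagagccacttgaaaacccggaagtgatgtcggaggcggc
The Tert stretch held 2 GC boxes and no CCAAT box. The Nhp2 stretch held 3 GC boxes and 3 CCAAT matches, of which a pair on opposite strands overlaps. Such windows were found for 9 of the 10 members, and 6 of the 9 (Tert, Nhp2, Ctc1, Ten1, Rtel1 and Dclre1b) held a GC box, which 32.7% of 32851 mouse promoter windows also held. Wrap53 had a pair of windows, and all its matches given below lay in 1 of them. A member was counted if any of its windows held a match, whereas the shares over all promoters count windows. CCAAT stood in the windows of Nhp2 and Wrap53, against 33.8% of all windows. The E-box CACGTG stood in those of Wrap53 and Ctc1, against 6.02% of all windows. The telomeric repeat TTAGGG, which telomere proteins recognise, stood in that of Wrap53 alone among the members, against 9.32% of all windows. These matches are descriptions of the letters, with both strands searched, and binding was not measured on the arrays.

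No member differed between genotypes beyond the spread between mice. Of the 9 member probes kept (marked well above background by 4 or more arrays), 0 passed an adjusted p of 0.05 in limma with Benjamini-Hochberg adjustment over 33982 probes, against 2 probes or 0.00589% of all probes, both of them Terf2ip probes. At an unadjusted p under 0.05 in limma, 0 of the 9 passed, against 1641 or 4.83% of all probes. The genotypes overlapped for all 9 members, whereas they did not overlap for 1074 or 3.16% of all probes. Of the 9 differences, 2 were above 0 and 7 below, with a median of -0.12, beside a median of -0.038 and 59.6% of probes below 0 over all probes kept. With arrays scaled to their E1A spike-in controls instead, the median of all probes moved to 0.18, the members' median to 0.098, and all 9 member differences were above 0. Relative to the median of all probes, 4 members were above and 5 below. This count could not change between the 2 scalings, which shift the difference of every probe by the same amount. No direction is given for the members as a group.

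**Figure D1:**
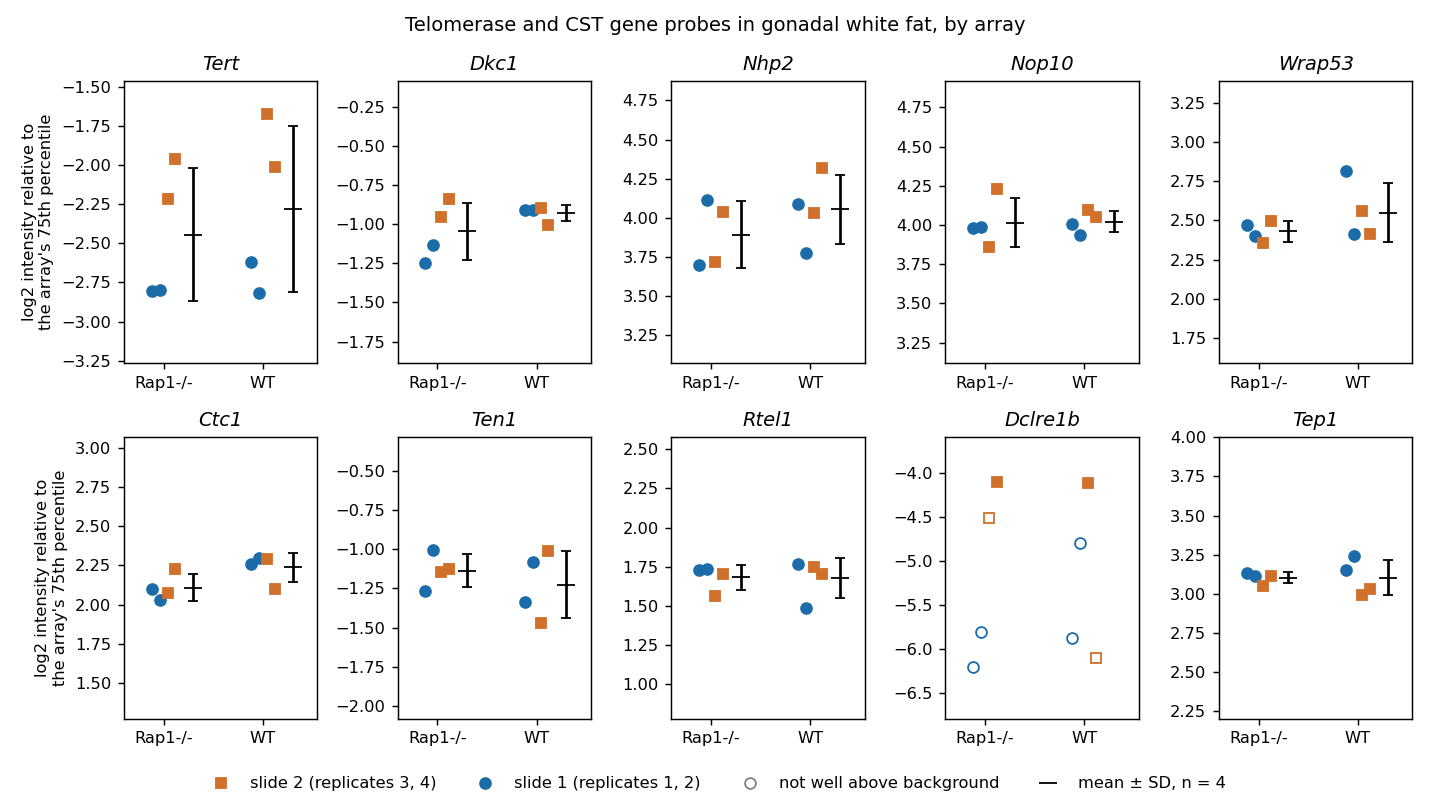
Log2 intensity relative to the array's 75th percentile (vertical axes, all panels at the same scale except Dclre1b) for each member probe on the 4 Rap1-/- and 4 WT arrays. Squares are slide 2, circles slide 1, open symbols arrays not well above background, and bars the mean ± SD. Rap1-/- and WT arrays overlap in every panel, and the Tert squares all lie above the Tert circles.

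Tert, the catalytic subunit, was well above background on all 8 arrays, at 66.6 to 112 intensity units in Rap1-/- fat and 61.0 to 104 in WT fat. Its values were -2.81, -2.80, -2.21 and -1.96 in Rap1-/- replicates 1 to 4, against -2.62, -2.82, -1.68 and -2.01 in WT replicates 1 to 4. The genotypes overlapped over nearly their whole range, with the highest value in WT replicate 3 and the lowest in WT replicate 2. The difference, Rap1-/- minus WT, was -0.16 ± 0.30 (SE, n = 4 each, limma adjusted p = 0.951), and its 95% interval ran from -0.84 to 0.52. In this fit, which leaves slide out, Tert had the least precise difference of the 9 members. Its residual SD of 0.48 was larger than that of 88.4% of all probes kept. Without WT replicate 3 the difference was 0.039.

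The spread of Tert followed the slides. Its values lay between -2.21 and -1.68 on slide 2 and between -2.82 and -2.62 on slide 1, without overlap, in Rap1-/- and in WT mice alike. The difference, slide 2 minus slide 1, was 0.79 ± 0.12 (SE), or 1.73-fold, with an exact two-sided permutation p of 0.0286, the smallest that the 70 assignments of 4 and 4 arrays allow. In limma with genotype in the model its adjusted p was 0.100, and 0 of 33982 probes (0.0%) passed 0.05 for slide, although 3510 or 10.3% had an unadjusted p under 0.05. This slide comparison was chosen after the values had been seen. Tert was the 1 member of 9 whose slides did not overlap, beside 2220 or 6.53% of all probes, and the 1 member with an unadjusted p under 0.05 for slide. The slides stayed apart in unscaled intensity (84.5 to 112 units on slide 2 and 61.0 to 71.0 on slide 1). They also stayed apart after scaling to the E1A spike-ins, with a difference of 0.58, and in the deposited value table, with a difference of 0.35.

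Each slide held 2 arrays of each genotype, so putting slide in the model could not change the genotype difference of Tert. The SE of that difference fell to 0.12 (limma adjusted p = 0.828, 95% interval -0.43 to 0.11), below the SE of 0.15 for Nhp2 and 0.13 for Ten1 in the same fit. Within slide 2 the difference was -0.24 and within slide 1 it was -0.083. The labels do not say how mice were assigned to slides, so mouse, RNA preparation and hybridisation cannot be told apart here. The summed levels of all 9 cell type marker lists overlapped between slides. Lists leaned either way: 9 of 10 proliferation genes and 6 of 7 lymphocyte genes averaged higher on slide 2, with sums of 10.1 to 15.8 on slide 2 and 11.1 to 13.5 on slide 1 for proliferation and 3.82 to 6.04 on slide 2 and 3.24 to 4.16 on slide 1 for lymphocytes. None of 5 macrophage genes (57.3 to 67.4 on slide 2 and 61.8 to 81.0 on slide 1) and none of 8 skeletal muscle genes did, and 1 of 6 genes did for mesothelium and for fibroblasts. The ovary and reproductive tract sum, 27.7 to 35.8 on slide 2 and 22.7 to 28.2 on slide 1, was carried by Foxl2 (mean 4.90 on slide 2 and 4.60 on slide 1, log2), whereas Inha and Ovgp1 averaged lower on slide 2. Of the proliferation genes 7 of 10, and of the lymphocyte genes 5 of 7, were well above background on all 8 arrays. E1A scaling lowers every slide difference by the same amount (that of Tert from 0.79 to 0.58). Fewer proliferation and lymphocyte genes average higher on slide 2 with it. The part of these markers in the Tert values was not tested.

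Terc, the RNA template that TERT copies, is not among the 10 genes but was measured beside Tert. Its values were -3.32, -2.93, -2.83 and -2.72 in Rap1-/- replicates 1 to 4 and -2.88, -3.20, -2.32 and -2.45 in WT replicates 1 to 4. All 4 Rap1-/- values were below the WT mean, yet the genotypes overlapped, and the difference was -0.24 ± 0.22 (SE, limma adjusted p = 0.910). With E1A scaling not all 4 were below the WT mean, and the difference was smaller in size. With 75th-percentile scaling the slides did not overlap for Terc, with -2.83 to -2.32 on slide 2 and -3.32 to -2.88 on slide 1. The difference was 0.50 ± 0.13 (SE, limma adjusted p = 0.214, exact two-sided permutation p = 0.0286). Unlike for Tert, the slides overlapped for Terc in unscaled intensity and with E1A scaling. There Rap1-/- replicate 3 and, by a small margin, WT replicate 3, both on slide 2, lay below Rap1-/- replicate 2 on slide 1. Of the 59 probes kept for other telomere genes, 2 did not overlap between slides (3.39%, against 6.53% of all probes), Terc and Naf1, an assembly factor of H/ACA particles named after its values were seen.

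**Figure D2:**
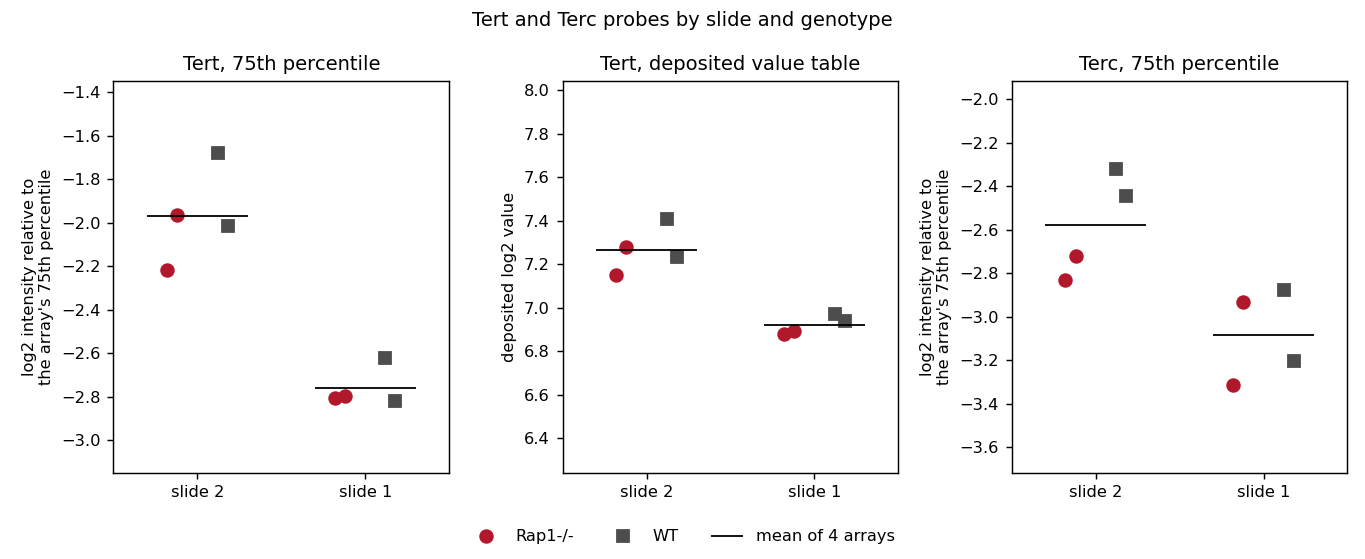
Tert and Terc values (log2, vertical axes) by slide, with red circles for Rap1-/- arrays, grey squares for WT arrays and a line at the mean of 4 arrays. In each panel every slide 2 array lies above every slide 1 array, also for Tert in the deposited value table, where slide 2 spans 7.15 to 7.41 and slide 1 spans 6.88 to 6.97.

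Dkc1, Nhp2 and Nop10 encode the H/ACA core proteins, of which dyskerin (Dkc1) is the pseudouridine synthase. Dkc1 read -1.25, -1.13, -0.96 and -0.84 in Rap1-/- replicates 1 to 4 and -0.91, -0.91, -0.89 and -1.005 in WT replicates 1 to 4. The WT arrays were tightly grouped (SD 0.051, n = 4), and the Rap1-/- arrays (SD 0.18, n = 4) lay on both sides of them. The difference was -0.12 ± 0.11 (SE, limma adjusted p = 0.912, 95% interval -0.36 to 0.13). It was 0.051 within slide 2 and -0.28 within slide 1, where both Rap1-/- arrays were below both WT arrays.

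Nhp2, which binds the RNA stem of these particles, read 3.70, 4.11, 3.72 and 4.04 in Rap1-/- replicates 1 to 4 and 4.09, 3.78, 4.03 and 4.32 in WT replicates 1 to 4. The highest array was WT replicate 4 and the lowest Rap1-/- replicate 1, with the other 6 interleaved. The difference was -0.16 ± 0.15 (SE, limma adjusted p = 0.911), and the interval of -0.50 to 0.18 was the widest after that of Tert in the fit without slide. Nop10, the smallest core protein, read 3.98, 3.98, 3.86 and 4.23 in Rap1-/- replicates 1 to 4 and 4.01, 3.93, 4.10 and 4.05 in WT replicates 1 to 4. The 4 WT arrays lay inside the Rap1-/- range. The difference was -0.0063 ± 0.10 (SE, limma adjusted p = 0.996, 95% interval -0.24 to 0.22).

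Wrap53 encodes TCAB1, which carries telomerase to Cajal bodies. Its probe read 2.47, 2.40, 2.35 and 2.49 in Rap1-/- replicates 1 to 4 and 2.81, 2.41, 2.56 and 2.41 in WT replicates 1 to 4. WT replicate 1 was the highest array, while WT replicates 2 and 4 lay inside the Rap1-/- range. The difference was -0.12 ± 0.11 (SE, limma adjusted p = 0.912, 95% interval -0.37 to 0.13). Tep1, a protein of telomerase and of vault particles, read 3.14, 3.11, 3.05 and 3.12 in Rap1-/- replicates 1 to 4 and 3.15, 3.24, 3.00 and 3.03 in WT replicates 1 to 4. It had the narrowest interval of the members, -0.20 to 0.20. It averaged 3.104 ± 0.037 in Rap1-/- fat and 3.105 ± 0.11 in WT fat (SD, n = 4 each).

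Of the CST subunits, Ctc1, the large subunit that binds single-stranded DNA, came nearest to a separation of the genotypes. It read 2.10, 2.03, 2.07 and 2.23 in Rap1-/- replicates 1 to 4 and 2.26, 2.30, 2.29 and 2.10 in WT replicates 1 to 4. WT replicates 1 to 3 were above all other arrays, Rap1-/- replicate 4 came next, and WT replicate 4 was level with Rap1-/- replicate 1. The difference was -0.13 ± 0.088 (SE, limma unadjusted p = 0.176 and adjusted p = 0.897), and the exact two-sided permutation p of 0.0857 was the smallest among the members. It was -0.047 within slide 2 and -0.21 within slide 1.

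Ten1, the small subunit, read -1.26, -1.01, -1.14 and -1.13 in Rap1-/- replicates 1 to 4 and -1.34, -1.08, -1.47 and -1.01 in WT replicates 1 to 4. The Rap1-/- arrays lay within the WT range apart from a near tie at the top. Its difference was the most positive of the members, 0.090 ± 0.12 (SE, limma adjusted p = 0.932, 95% interval -0.19 to 0.37). Stn1, the remaining CST subunit and not a member, averaged 2.34 ± 0.12 in Rap1-/- fat and 2.31 ± 0.10 in WT fat (SD, n = 4 each), a difference of 0.023.

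Rtel1 encodes a helicase that unwinds telomeric loops and secondary structures. It read 1.73, 1.74, 1.57 and 1.71 in Rap1-/- replicates 1 to 4 and 1.77, 1.49, 1.75 and 1.71 in WT replicates 1 to 4. The lowest and the highest arrays were both WT, and the difference was 0.0061 ± 0.095 (SE, limma adjusted p = 0.996, 95% interval -0.21 to 0.22). Dclre1b encodes Apollo, the nuclease that starts the overhang after replication of the leading strand. It was the 1 member that missed the filter: its probe was well above background on Rap1-/- replicate 4 and WT replicate 3 only, so no fold is given. Its intensities were 6.78 to 25.5 units in Rap1-/- fat and 6.16 to 17.4 in WT fat.

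**Figure D3:**
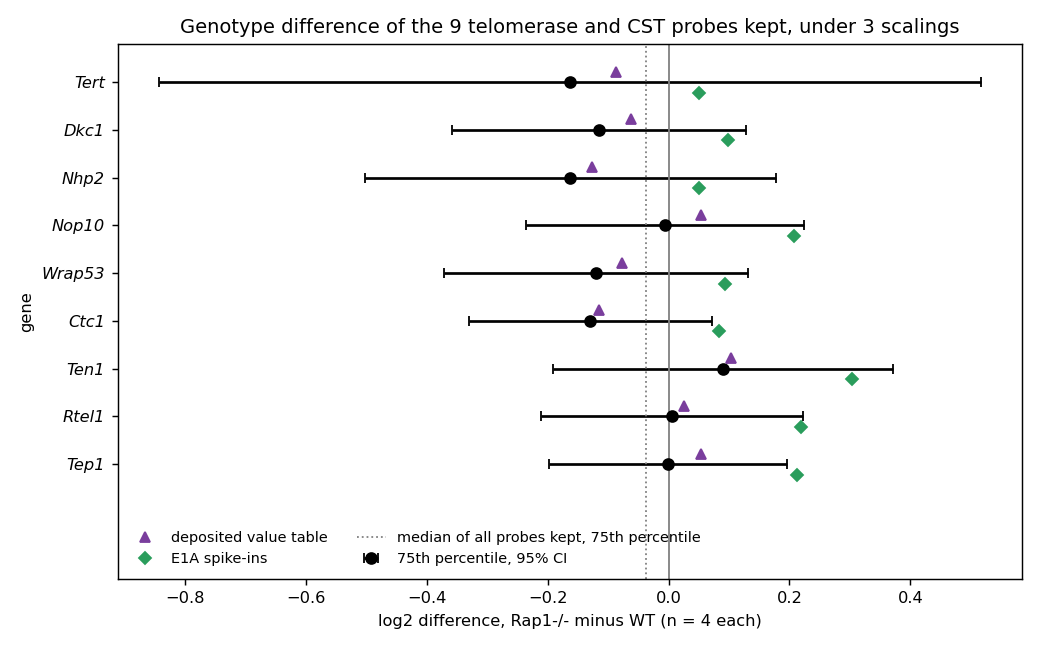
Log2 difference, Rap1-/- minus WT, for the 9 members kept, with 95% confidence intervals (black circles and bars, 75th-percentile scaling) and the same difference in the deposited table (purple triangles) and with E1A scaling (green diamonds). Every interval includes 0, the Tert interval is the widest in this fit without slide, and all 9 E1A values lie above 0.

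The intervals give the range of genotype differences compatible with these arrays under a given scaling and model. With 75th-percentile scaling, for the 8 members kept other than Tert they lay between -0.50 and 0.37, that is from 1.42-fold lower to 1.29-fold higher in Rap1-/- fat. With E1A scaling the same 8 intervals lay between -0.39 and 0.79, that is up to 1.73-fold higher. For Tert the interval reached -0.84 without slide in the model and -0.43 with it. Between slides, 4 of the 9 members took opposite signs of genotype difference, a contrast that was not tested. The adjusted p of the 9 ranged from 0.897 to 0.999 in limma.

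The rest of the telomere machinery was read from lists of 45 other genes without Terf2ip, of which 44 genes had 59 probes kept. None of the 59 passed an adjusted p of 0.05 in limma, and 0 had an unadjusted p under 0.05, with 26 differences above 0 and 33 below. The differences ran from -0.34 to 0.27 with a median of -0.021. Of the 14 genes of telomerase RNA and H/ACA partners, read through 1 probe each, 6 were above 0 and 8 below. Gar1, the remaining core protein of the particle, averaged 2.79 ± 0.15 in Rap1-/- fat and 2.71 ± 0.14 in WT fat (SD, n = 4 each), a difference of 0.079. Of 5 genes of Stn1 and polymerase alpha-primase, 4 were above 0 and 1 below. Of 6 shelterin subunits besides Terf2ip, 1 was above 0 and 5 below, with a median of -0.14. The 13 replication and repair factors divided into 6 above and 7 below, and 4 genes of the SNM1 nuclease family and the vault particle into 2 and 2. All these counts belong to the scaling without spike-ins, under which 59.6% of all probes kept were below 0. E1A scaling raises every genotype difference by the same amount, and the median of all probes moves from -0.038 to 0.18. The counts above and below 0 therefore depend on the scaling, and no direction is given for these lists.

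**Figure D4:**
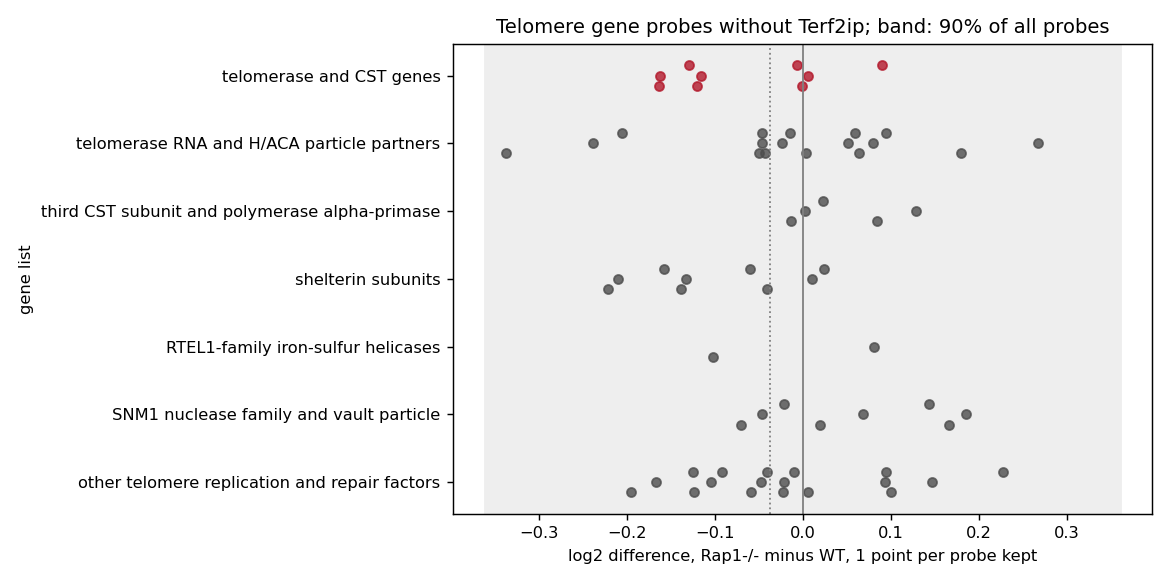
Log2 difference, Rap1-/- minus WT (horizontal axis), of each telomere gene probe kept except those of Terf2ip, by list, with the 10-gene set in red on top. The dotted line is the median of all probes (-0.038) and the shaded band runs from -0.36 to 0.36, which holds 90% of all probes kept. Every probe shown lies inside the band.

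A pair of members, Wrap53 and Dclre1b, start close to a gene on the opposite strand. In RefSeq GRCm38.p6, Trp53, encoding the p53 tumour suppressor, starts 109 bases from Wrap53 and the genes point apart. Trp53 read -2.20, -2.09, -1.99 and -1.72 in Rap1-/- replicates 1 to 4 and -2.23, -2.22, -2.12 and -2.16 in WT replicates 1 to 4. Rap1-/- replicates 2, 3 and 4 lay above all WT arrays, and the difference was 0.18 ± 0.11 (SE, limma adjusted p = 0.897), while that of Wrap53 was -0.12. Ap4b1, a subunit of an adaptor complex for vesicle coats, starts 130 bases from Dclre1b. Its 2 probes differed by 0.021 and 0.079 (limma adjusted p = 0.986 and 0.914).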

How the data were processed

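RNA of gonadal white fat from 4 Rap1-/- and 4 WT mice was run by the authors on one-colour Agilent arrays. The file headers give Feature Extraction 10.7.3.1, which is not the version in the study's methods, and a design on mm9. The deposited scanner files hold processed signals as linear intensity values, with no scaling between arrays, and 0 or 1 flags for spots well above background. The deposited value table holds log2 values. It matched normexp background correction with offset 50 followed by quantile normalisation on every array, and served as an alternative.

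The log2 of the processed signal was taken, each array's 75th percentile was subtracted and spots of a probe were averaged. Of 55681 probes, 13 lacked a value and were dropped. A probe was kept if 4 or more of the 8 arrays marked it well above background (33982 probes). RefSeq accessions named 26056 probes (46.8%) through a GRCm38.p6 gene table. Genotypes were compared with limma 3.58.1 in R 4.3.3 (lmFit, eBayes), adjusted over all probes kept, and with exact two-sided permutation tests. The fit was tested on simulated data. Named were all members, of the other telomere genes those with an unadjusted p under 0.05 plus Terc, Stn1, Gar1 and Terf2ip, and the genes sharing a promoter with a member. Genes with several probes were read through the one with the highest mean. The members and gene lists were chosen with earlier results of these data known. Alternatives covered background correction, scaling, filters, slide, replicate number and each array left out. Only 4 arrays per genotype limit the precision. The labels call the mice biological replicates.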

Additional observations from a re-analysis of the deposited data

Results flagged for a closer look

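Among 20 sets of 4 arrays (10 members in 2 genotypes), 1 held an array apart from the rest by Dixon's 95% critical value, and chance alone marks about 1 in 20 such sets. It was Dkc1 in WT fat, where replicate 4 read -1.005 and the nearest of the other 3 arrays -0.91, a gap of 0.85 of the range. The gap is smaller than the SD of 0.18 among the Rap1-/- arrays.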

How the results depend on the processing

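Of 189 member differences computed under 21 alternative settings (8 of which left out 1 array), 157 kept the direction given above and 32 did not. In limma 0 passed an adjusted p of 0.05. No member had an unadjusted p under 0.05 in limma under any of the 21 settings. Other filters, 1 probe a gene, slide or replicate number in the model, and other eBayes options could not alter a member's difference. Agreement in direction was fixed in advance there, and all 32 reversals came under the remaining settings. With E1A scaling the differences were 0.050 for Tert, 0.098 for Dkc1, 0.051 for Nhp2, 0.21 for Nop10, 0.093 for Wrap53, 0.084 for Ctc1 and 0.21 for Tep1, and the members' median was 0.098. Nop10 was 0.043 and Tep1 0.047 with normexp, 0.028 and 0.026 with quantile normalisation, 0.054 and 0.059 with median scaling, and 0.054 and 0.053 in the deposited table. Within slide 2, Dkc1 was 0.051, Rtel1 -0.092 and Tep1 0.071, and within slide 1 Nop10 was 0.013. Leaving out 1 array at a time gave -0.34 to 0.039 for Tert, -0.079 to 0.045 for Nop10, -0.057 to 0.046 for Rtel1 and -0.037 to 0.045 for Tep1. Over all probes, 2 passed an adjusted p of 0.05 in limma, against 1 with probes well above background on all 8 arrays, 1 with 1 probe a gene, 1 within slide 1 and 0 within slide 2, where 1235 had an unadjusted p under 0.05. The count at an unadjusted p under 0.05 in limma was 2563 with no filter, 1153 to 3019 when 1 array was left out, and highest without WT replicate 2. Its split of 554 higher and 1087 lower became 345 and 1366 with normexp, 808 and 768 with quantile normalisation, 681 and 664 with median scaling, 1630 and 137 with E1A scaling, and 770 and 735 in the deposited table. With a replicate block, 2 probes passed over all probes, the members' median was -0.12 and 0 members passed. Arrays sharing a replicate number did not deviate together (correlations -0.21 to -0.10). Each Rap1-/- array correlated best with the WT array of the other number on its slide (0.19 to 0.35). Deviations from means of 4 arrays constrain each other, so these correlations cannot decide whether the numbers pair the mice. Why the scalings differ was not tested. Dclre1b was too dim for a difference to be measured.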
